A study of Mus musculus with 18 samples.

Results

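The MYC network comprises transcription factors that pair through a helix-loop-helix and leucine zipper. Here it is described by 7 genes, Myc, Max, Mlx, Mxd1, Mxd4, Mxi1 and Mnt, in regulatory T cells (TR) of mouse lymph node and spleen. The genes were chosen by name, with their levels in these samples already in view, and all 7 were found among the 14011 genes of the authors' normalized table and the 37991 of their count table. Each of the 7 also passed the filter on low counts, which left 12445 genes. Because the levels were known when the genes were chosen, every contrast of their levels below is a description without a test.

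RNA was sequenced from 18 libraries of 500 sorted cells each, taken from peripheral lymph nodes and spleens of 3 littermate C57BL/6 mice (84, 86 and 87). All mice carried both reporters, Id3-GFP and Foxp3-mRFP, so all groups share that genotype and no group was treated, and the labels give no age. Each mouse gave 3 TR populations per tissue, which makes 6 groups of 3 libraries. Id3- effector TR (Id3- eTR) were negative for the signal of the Id3 reporter, and their label gives no CD44 or CD62L gate. Id3+ effector TR (Id3+ eTR) were positive for this signal and were sorted as CD62Llo CD44hi. Id3+ central TR (Id3+ cTR) were also positive for it and were sorted as CD62Lhi CD44lo. The populations were set apart by sorting, so a difference between them is not a time course.

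MYC binds DNA as a pair with MAX, mostly at the E-box CACGTG, and raises the transcription of genes for ribosome assembly, nucleotide synthesis and translation. MXD1, MXD4, MXI1 and MNT also pair with MAX, bind the same E-box and recruit the SIN3-HDAC corepressor, so that they compete with MYC. MLX is a MAX-like partner, which pairs with the glucose-sensing factors MondoA and ChREBP and can also pair with MXD1, MXD4 and MNT. In T cells, MYC is induced by antigen receptor and cytokine signals and drives the growth that comes before division, while MXD proteins are known from differentiating and resting cells.

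The libraries held 1600782 to 3153325 counts and 13701 to 15045 detected genes. The 7 markers of T cells and TR on the list summed to between 2810 and 4050 CPM (counts scaled to the library total) in every library. Foxp3, the lineage factor of TR, stood between 237 and 374 CPM. Spleen Id3+ eTR of mouse 84 differed from both partners by 22.3 times the counting variance, where other pairs of a group lay between 4.44 and 8.02. Spleen Id3+ cTR of mice 84 and 87 had the lowest totals, 1600782 and 1684461 counts. Some spleen values are also given without these 3 libraries.

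Myc itself was lowest in Id3- eTR of both tissues, and the ratio of its highest to its lowest group mean was larger than that of its partners. In lymph node, Id3- eTR had 68.0, 58.8 and 73.8 CPM in mice 84, 86 and 87, Id3+ eTR had 153, 189 and 149.6 CPM, and Id3+ cTR had 246, 278 and 289.7 CPM. None of these 3 lymph node groups overlapped another, and they form 3 levels. In spleen, Id3- eTR had 91.7, 109.7 and 78.2 CPM, Id3+ eTR had 201, 170.1 and 191 CPM, and Id3+ cTR had 149.6, 205 and 208 CPM. Both Id3+ populations of spleen overlapped each other, and both lay above every Id3- eTR library. Behind these values stand counts of 161 to 840 reads per library.

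Ordered by mean level, Myc was highest in lymph node Id3+ cTR, at 271 ± 22.3 CPM (SD, n = 3). Spleen Id3+ eTR (187 ± 15.8 CPM), spleen Id3+ cTR (187 ± 32.7 CPM) and lymph node Id3+ eTR (164 ± 22.1 CPM) followed, and their libraries overlapped. Spleen Id3- eTR (93.2 ± 15.8 CPM) and lymph node Id3- eTR (66.9 ± 7.55 CPM) came last, each apart from its neighbours. The highest group mean was 4.06 times the lowest for Myc, 3.05 times for Mxd1 and 2.61 times for Mnt. It was 1.56 times for Mxd4, 1.44 times for Max, 1.3 times for Mlx and 1.29 times for Mxi1. The spread between the mice of a group, as the median coefficient of variation, was 12.4% for Myc, 25.8% for Mxd1 and 32.9% for Mnt.

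**Figure D1:**
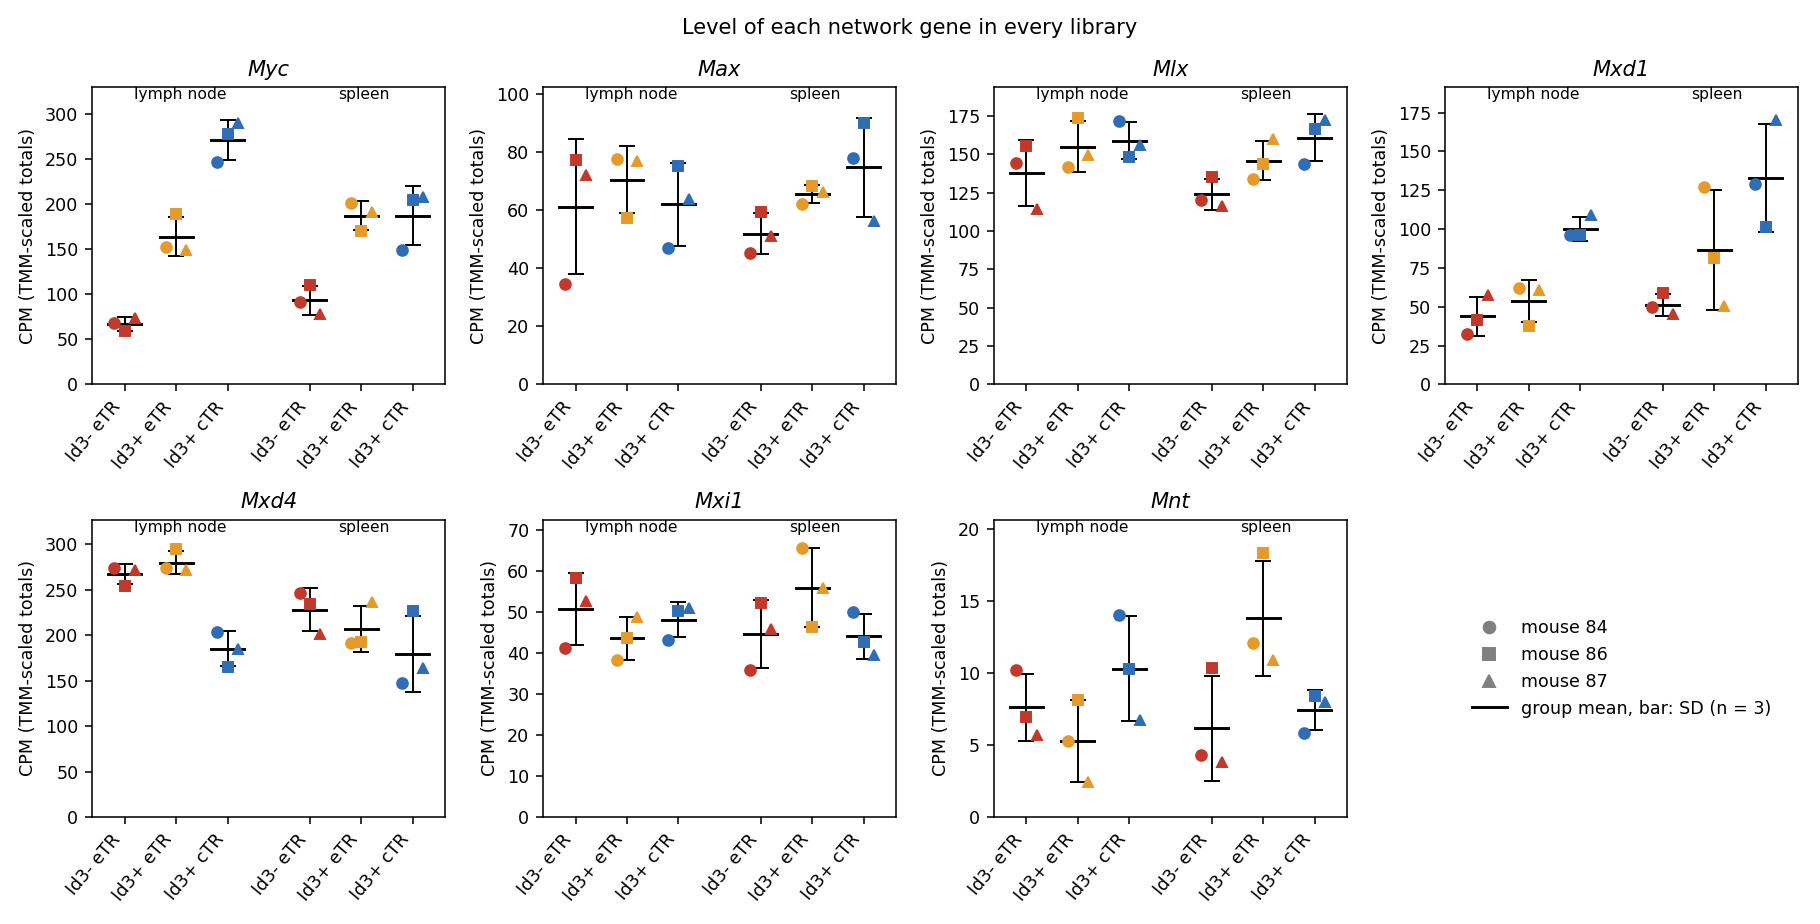
Level of each of the 7 genes in every library, in CPM on TMM-scaled totals, with lymph node left of spleen and, within each tissue, Id3- eTR, Id3+ eTR and Id3+ cTR. Symbols mark the mouse, horizontal lines the group mean and bars the SD (n = 3); the Myc libraries of Id3- eTR lie below all others in both tissues, while Mxi1 libraries overlap throughout.

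On the log2 scale, Myc was lower in lymph node Id3- eTR than in Id3+ cTR by 2.02 (log2 change -2.02 ± 0.16, SE), which is a 4.06-fold difference. In spleen the same contrast gave -1.01 ± 0.16. Between Id3+ eTR and Id3+ cTR, Myc was lower in lymph node (-0.73 ± 0.15) and level in spleen (-0.00 ± 0.15, with estimates from -0.18 to 0.15 over 16 alternative fits). Between Id3- eTR and Id3+ eTR the change was -1.29 ± 0.16 in lymph node and -1.01 ± 0.15 in spleen. The contrasts of a tissue share groups, so they are not separate evidence. Myc thus differed between all 3 populations of lymph node, and in spleen between Id3- eTR and the other two. In the other 5 population contrasts the sign of Myc was the same in every alternative fit. As the libraries are from pools of sorted cells, fewer cells with the transcript and less transcript per cell cannot be told apart.

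The tissues differed in opposite directions at the ends of this order. In Id3+ cTR, Myc was higher in lymph node than in spleen (0.53 ± 0.15), with no overlap between the libraries. In Id3- eTR it was lower in lymph node than in spleen (-0.47 ± 0.16), again with no overlap. The Id3- eTR contrast with Id3+ cTR was therefore larger in lymph node by -1.01 ± 0.22, and it was so in 3 of 3 mice. Without the 3 spleen libraries named above, this difference was -0.88 and the Id3+ cTR difference between the tissues was 0.41.

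Max and Mlx, the obligate partners, varied little. Max, the partner of MYC and of the MXD proteins, averaged between 51.9 and 74.7 CPM over the 6 groups. In spleen, Max stood at 45.3, 59.3 and 51.1 CPM in Id3- eTR and at 62.0, 68.4 and 66.1 CPM in Id3+ eTR. Those 2 groups did not overlap, yet the log2 change of -0.34 ± 0.27 was close to its SE. In lymph node all 3 populations overlapped for Max, at 34.6, 77.1 and 72.0 CPM in Id3- eTR, 77.4, 57.2 and 76.9 CPM in Id3+ eTR and 46.9, 75.1 and 63.9 CPM in Id3+ cTR.

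Mlx averaged between 124 and 161 CPM. In spleen it stood at 121, 135 and 116 CPM in Id3- eTR, against 144, 167 and 173 CPM in Id3+ cTR. These groups did not overlap, with a log2 change of -0.38 ± 0.13 (-0.43 without the 3 libraries). In lymph node, Mlx overlapped in all 3 pairs of populations. On the opposite strand, 385 bases of Mlx exons (19.3%) overlap exons of Psmc3ip, and the sources used here do not say whether the counting used the strand. Reads of these genes may therefore not be fully separated. The like overlap was 6.1% of exon bases for Mxd4 and 2.8% for Mxi1.

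Among the antagonists, Mxd1 and Mxd4 went in opposite directions in lymph node. Mxd1 was lower in Id3- eTR than in Id3+ cTR, without overlap in either tissue. Its lymph node levels were 32.2, 41.6 and 57.4 CPM in Id3- eTR, 62.1, 37.9 and 60.9 CPM in Id3+ eTR and 96.1, 95.9 and 109 CPM in Id3+ cTR. Its spleen levels were 49.6, 58.9 and 45.2 CPM in Id3- eTR, 127, 81.4 and 50.5 CPM in Id3+ eTR and 129, 101 and 170.2 CPM in Id3+ cTR. The spleen Id3+ eTR libraries thus spread over the whole range between the other populations, and the highest of them is that of mouse 84.

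The log2 change of Mxd1 in Id3- eTR against Id3+ cTR was -1.19 ± 0.30 in lymph node and -1.38 ± 0.30 in spleen (-0.98 without the 3 libraries). In Id3+ eTR against Id3+ cTR it was -0.90 ± 0.30 in lymph node, without overlap, and -0.62 ± 0.30 in spleen, with overlap. By mouse, the spleen change was -0.016, -0.31 and -1.74 in mice 84, 86 and 87. It ran from -1.03 without mouse 84 to -0.12 without mouse 87 over 16 alternative fits. In Id3- eTR against Id3+ cTR, Mxd1 was thus lower in both tissues, as Myc was.

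Mxd4, the most abundant of the antagonists, was higher in both effector populations of lymph node. There it stood at 274, 254 and 271 CPM in Id3- eTR, 274, 295 and 272 CPM in Id3+ eTR and 204, 165 and 185 CPM in Id3+ cTR. No library of either effector group overlapped Id3+ cTR, and the effector groups overlapped each other. Against Id3+ cTR, the log2 change of Id3- eTR was 0.53 ± 0.14 and that of Id3+ eTR 0.60 ± 0.14.

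In spleen, Mxd4 stood at 247, 235 and 201 CPM in Id3- eTR, 192, 193 and 236 CPM in Id3+ eTR and 147, 227 and 164 CPM in Id3+ cTR. All 3 groups overlapped, with a log2 change of 0.34 ± 0.14 in Id3- eTR and 0.20 ± 0.14 in Id3+ eTR against Id3+ cTR. Without the 3 libraries these were 0.01 and -0.08, with mouse 86, at 227 CPM, as the only Id3+ cTR library left. The spleen difference of Mxd4 thus depended on which Id3+ cTR libraries were used. Set against spleen, lymph node also had more Mxd4 in both effector populations, by 0.23 ± 0.14 for Id3- eTR and 0.44 ± 0.14 for Id3+ eTR, without overlap.

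Mxi1, another MAX-binding repressor, overlapped in every pair of populations, with group means from 43.6 to 56.0 CPM. Mnt, a broadly expressed repressor that pairs with MAX and with MLX, was the least abundant of the 7 and had 7 to 45 counts per library. In spleen, Mnt stood at 4.32, 10.4 and 3.82 CPM in Id3- eTR, 12.1, 18.3 and 10.9 CPM in Id3+ eTR and 5.85, 8.39 and 8.02 CPM in Id3+ cTR. The spleen Id3+ eTR group lay above both others. In lymph node, Id3+ eTR had the lowest mean instead, at 5.26, 8.12 and 2.42 CPM, against 14.0, 10.3 and 6.75 CPM in Id3+ cTR, with overlap. The log2 changes of Mnt in Id3+ eTR against Id3+ cTR were -0.97 ± 0.53 in lymph node and 0.88 ± 0.52 in spleen, and the low counts limit how firmly these directions hold.

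The windows around the transcription start of the antagonists that moved in opposite directions, and of the members with an E-box, are shown so that these can be compared. They come from RefSeq (GRCm38.p6), run 5′ to 3′ on the strand of the gene, and the CACGTG E-box is in capitals. Of the 7 genes, 6 were matched to a window. CACGTG was in the window of 4 of these, Max, Mlx, Mxd4 and Mnt, and was not in that of Mxd1 or in the 3 windows of Mxi1. On both strands (the motif is its own reverse complement), 7.15% of the 32851 windows of all genes hold it. The E-box variant CAGCTG was in no window of the 6 genes, where 16.3% of all windows hold it. The variant CACCTG, searched on both strands, was in no window of the 6 genes either, where 20.2% of all windows hold it. These are matches of letters and no binding was measured. Mxd1 and Mxd4 are given by the bases before the start, the others by the E-box with its flanks.
Mxd1, chr6:86669160-86669409, minus strand: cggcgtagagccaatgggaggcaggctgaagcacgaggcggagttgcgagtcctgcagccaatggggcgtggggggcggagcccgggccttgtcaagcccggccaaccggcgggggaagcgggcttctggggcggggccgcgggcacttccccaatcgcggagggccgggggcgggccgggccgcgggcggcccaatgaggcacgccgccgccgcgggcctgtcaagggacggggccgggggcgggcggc
Mxd4, chr5:34187711-34187960, minus strand: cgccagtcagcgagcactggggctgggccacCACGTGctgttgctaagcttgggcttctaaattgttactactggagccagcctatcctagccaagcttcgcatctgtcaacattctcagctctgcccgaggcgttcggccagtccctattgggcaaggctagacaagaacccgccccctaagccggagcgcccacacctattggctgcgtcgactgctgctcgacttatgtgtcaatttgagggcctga
Max, chr12:76962226-76962271, minus strand: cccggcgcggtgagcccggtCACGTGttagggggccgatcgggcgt
Mlx, chr11:101087230-101087275, plus strand: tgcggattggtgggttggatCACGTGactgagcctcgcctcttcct
Mnt, chr11:74830781-74830826, plus strand: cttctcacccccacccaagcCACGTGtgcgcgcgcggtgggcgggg
In base positions from the transcription start, the E-box began at -219 in Mxd4, -123 in Mnt, -40 in Mlx and -3 in Max.

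To compare the genes with each other, CPM was divided by the length of all annotated exons of a gene. This length was 2717 bases for Myc, 7072 for Mxd1, 8483 for Mxd4 and 6823 for Mxi1. The transcripts expressed may be shorter, so the order of the genes, the sum and the size of the ratios depend on these lengths. On this scale, the medians over the 18 libraries were 73.3 CPM per kb for Mlx, 59.4 for Myc, 27.2 for Mxd4, 18.1 for Max, 8.7 for Mxd1, 6.98 for Mxi1 and 1.74 for Mnt. The sum of Mxd1, Mxd4 and Mxi1 stayed between 36.8 and 50.3 CPM per kb in all 18 libraries. Within this sum the share of the genes shifted. The ratio of Mxd4 to Mxd1 was 5.37 ± 1.6 in Id3- eTR, 4.63 ± 1.61 in Id3+ eTR and 1.54 ± 0.202 in Id3+ cTR of lymph node (SD, n = 3 each). In spleen it was 3.73 ± 0.405, 2.38 ± 1.36 and 1.21 ± 0.578 in Id3- eTR, Id3+ eTR and Id3+ cTR.

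The level of Myc per kb relative to that sum was 0.546 ± 0.0511 in Id3- eTR, 1.28 ± 0.189 in Id3+ eTR and 2.32 ± 0.24 in Id3+ cTR of lymph node. In spleen the ratio was 0.841 ± 0.0741 in Id3- eTR, 1.54 ± 0.0808 in Id3+ eTR and 1.48 ± 0.171 in Id3+ cTR. The highest Id3- eTR library had 0.924 and the lowest Id3+ library 1.15, so the Id3- eTR libraries of both tissues lay apart from all others. Since the sum varied so little, the ratio followed Myc. Myc per kb relative to Max was 1.66 ± 0.835 in Id3- eTR, 3.19 ± 1.03 in Id3+ eTR and 5.95 ± 1.03 in Id3+ cTR of lymph node. In spleen it was 2.39 ± 0.33 in Id3- eTR, 3.8 ± 0.5 in Id3+ eTR and 3.48 ± 1.25 in Id3+ cTR, where the Id3+ cTR libraries overlapped both other groups. Relative to Mxd1 alone, Myc was at 4.17 ± 1.15, 8.6 ± 3.81 and 7.04 ± 0.448 in Id3- eTR, Id3+ eTR and Id3+ cTR of lymph node and at 4.72 ± 0.192, 6.46 ± 2.99 and 3.82 ± 1.26 in these populations of spleen, where the Id3- eTR and Id3+ cTR libraries overlapped. These are ratios of transcripts per length, and protein amounts were not measured.

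**Figure D2:**
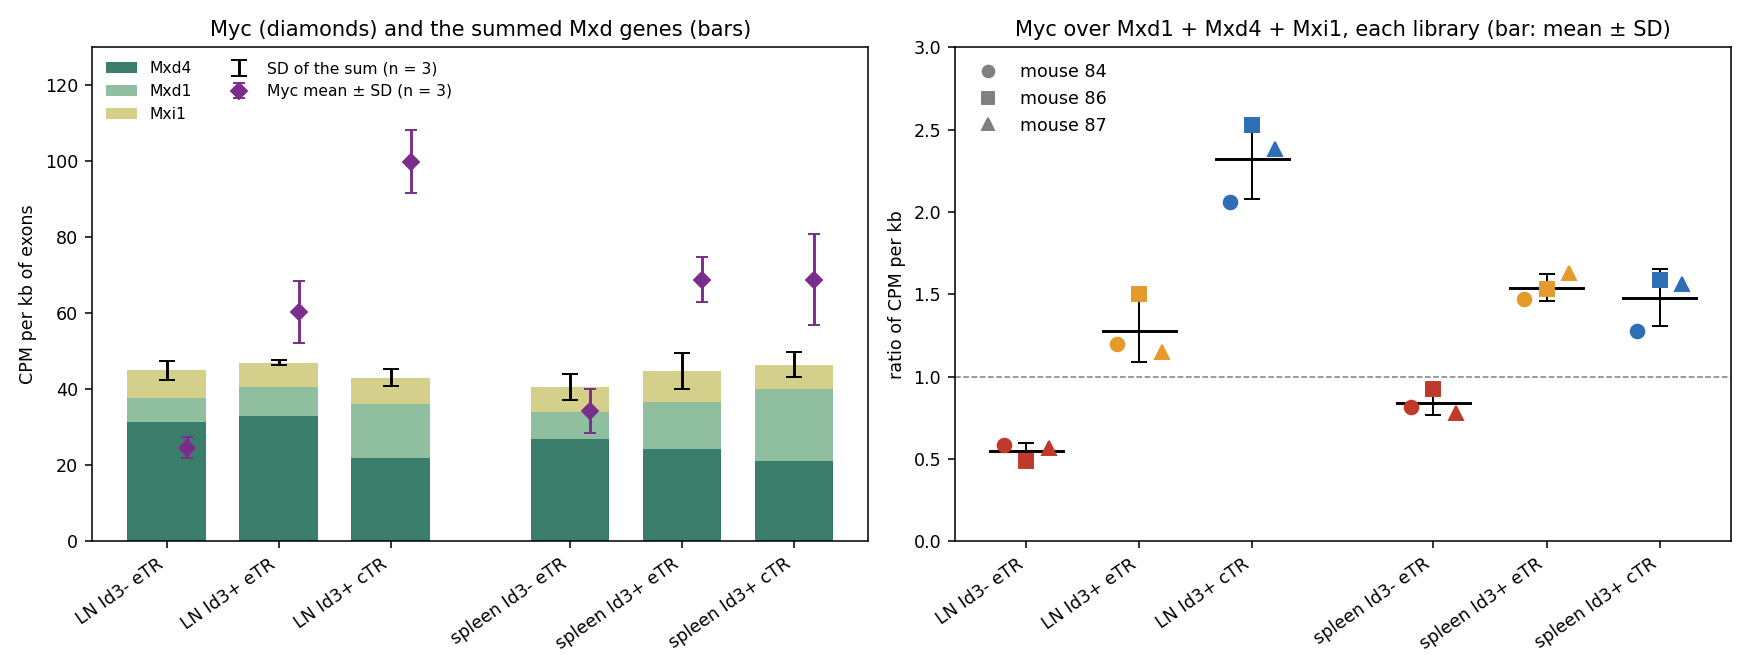
Left, Myc (diamonds, mean ± SD) beside the summed Mxd4, Mxd1 and Mxi1 (stacked bars of group means, SD of the sum) in CPM per kb of exons, for the 3 populations of lymph node (LN) and of spleen, n = 3. Right, the ratio of Myc to that sum in each library with the mean ± SD; the Id3- eTR libraries reach at most 0.924 and all other libraries are at 1.15 or above.

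Across the 18 libraries, which share mice and groups, the log2 levels of Mxd1 and Mxd4 had a Pearson's r of -0.81. Myc had an r of 0.69 with Mxd1, 0.60 with Mlx and -0.49 with Mxd4. These values are descriptions, and how much of each came from the group means was not computed.

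The members whose libraries did not overlap were counted in each contrast and read against all 12445 genes tested. In lymph node Id3- eTR against Id3+ cTR, 1 of 7 members was higher without overlap (Mxd4), where 17.8% of all genes were, and 2 were lower (Myc and Mxd1), where 16.1% of all genes were. In lymph node Id3+ eTR against Id3+ cTR the same members gave 1 higher, against 13.5% of all genes, and 2 lower, against 11.3%. In lymph node Id3- eTR against Id3+ eTR, Myc alone was lower, against 10.7% of all genes, and 0 of 7 were higher, against 11.3%.

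In spleen Id3- eTR against Id3+ cTR, Myc, Mlx and Mxd1 were lower without overlap, 3 of 7, against 14.1% of all genes, and 0 were higher, against 16.4%. In spleen Id3+ eTR against Id3+ cTR, Mnt was higher, 1 of 7, against 10.8%, and 0 were lower, against 9.07%. In spleen Id3- eTR against Id3+ eTR, Myc, Max and Mnt were lower, 3 of 7, against 8.76% of all genes, and 0 were higher, against 9.79%. Between lymph node and spleen, 2 of 7 members did not overlap in Id3- eTR (Mxd4 higher and Myc lower in lymph node), against 14.9% of all genes in either direction. In Id3+ eTR it was 2 of 7 (Mxd4 higher and Mnt lower in lymph node), against 13.8%, and in Id3+ cTR 1 of 7 (Myc higher in lymph node), against 14.6%. The members were chosen on these levels, so nothing is read from these shares beyond the description.

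**Figure D3:**
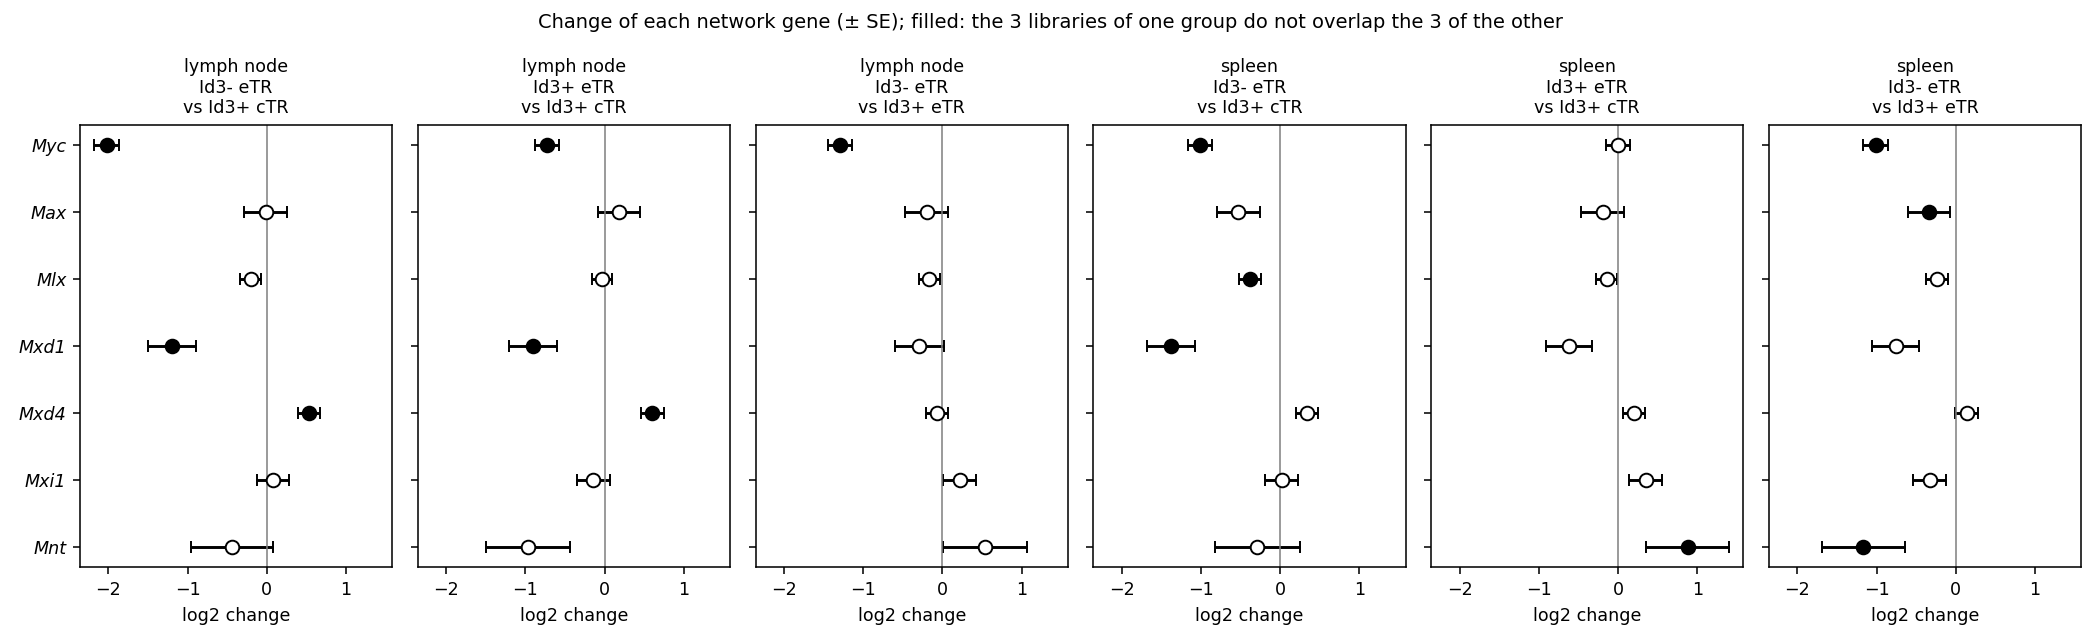
Log2 change ± SE of the 7 genes in the 3 population contrasts of lymph node (left) and of spleen (right), the group named first over the second. Filled points mark genes whose 3 libraries of one group do not overlap the 3 of the other; Myc is filled in 5 of the 6 contrasts and lies at 0 in spleen Id3+ eTR against Id3+ cTR.

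Other genes of the network and of the pathways around it were tested across all 12445 genes with edgeR's quasi-likelihood test, and a gene was called at a Benjamini-Hochberg adjusted p under 0.05. The lists were drawn up with earlier results of these data known. They are described by counts of calls beside the share of all genes called, and no list was tested as a whole. In lymph node Id3- eTR against Id3+ cTR, 8.26% of all genes were called higher and 4.68% lower. In spleen the shares were 7.17% higher and 5.09% lower. The gene-level median log2 change over all genes was 0.00 in both.

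Of the 6 other genes of the network listed, 3 could be tested. Mycn had 0 counts in every library, Mycl at most 22 and Mlxipl, which encodes ChREBP, at most 6, and none of these was tested. Mxd3, an antagonist known from dividing cells, was called higher in lymph node Id3- eTR than in Id3+ cTR. Its counts were 62, 6 and 110 in Id3- eTR, against 3, 2 and 0 in Id3+ cTR, and its log2 change was 5.10 ± 1.48 (edgeR adjusted p = 0.0302). The 3 Id3- eTR libraries differed widely, and the call was lost in 8 of 14 alternatives (adjusted p from 0.0658 to 0.328), among them limma-voom, the removal of mouse 84 or 87, and the removal of 5 single libraries, those of mice 84 and 87 in Id3- eTR and of mice 84, 86 and 87 in Id3+ cTR. In spleen Mxd3 had at most 5 counts per library and no call. Mga, a large MAX partner with repressor function, averaged 271 ± 15.4 CPM in Id3- eTR and 294 ± 30.6 CPM in Id3+ cTR of lymph node, and was not called in any population contrast. Mlxip, which encodes MondoA, averaged 147 ± 14.8 CPM in Id3- eTR and 173 ± 17.0 CPM in Id3+ cTR of lymph node and was not called there either.

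Among genes that MYC is known to activate for ribosome assembly, those called in Id3- eTR against Id3+ cTR were all called lower. Of 24 such genes tested, 13 were called lower and 0 higher in lymph node Id3- eTR against Id3+ cTR, where 4.68% of all genes were called lower. The median log2 change of the list was -0.73 and all 24 had a negative sign. In spleen 6 of 24 were called lower and 0 higher, against 5.09% of all genes, with a median of -0.39 and a negative sign in 22. All 6 genes called in spleen were among the 13 of lymph node, which makes 46.2% of the lymph node calls. They were Npm1, Nop56, Nop58, Nolc1, Wdr43 and Dkc1, which encode nucleolar proteins.

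Dkc1, the pseudouridine synthase of box H/ACA particles, stood at 142, 166 and 107 CPM in Id3- eTR, against 262, 259.9 and 273 CPM in Id3+ cTR of lymph node. Its log2 change was -0.94 ± 0.14 (edgeR adjusted p = 0.000227), and in spleen -0.74 ± 0.14 (adjusted p = 0.00212, or 0.0584 without mouse 87). Nop58, a core protein of box C/D particles, stood at 139.5, 112 and 151 CPM in Id3- eTR, against 246, 230.5 and 225 CPM in Id3+ cTR of lymph node. Its log2 change was -0.80 ± 0.13 (edgeR adjusted p = 0.000289), and in spleen -0.74 ± 0.13 (adjusted p = 0.000732). Every Id3- eTR library lay below every Id3+ cTR library for both genes.

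Nolc1, a nucleolar phosphoprotein, averaged 79.7 ± 4.4 CPM in Id3- eTR and 149 ± 11.5 CPM in Id3+ cTR of lymph node (log2 change -0.91 ± 0.17, edgeR adjusted p = 0.00166, or 0.0529 and 0.073 without mouse 86 or 87). In spleen its call (-0.57 ± 0.17, adjusted p = 0.041) was seen in 2 of 3 mice and was lost in 10 of 16 alternatives, the mouse as a block among them (adjusted p = 0.0642). Nop56, the partner of NOP58, falls outside the naming rule and was picked after its values were seen. It stood at 193, 181 and 157 CPM in Id3- eTR, against 293, 325 and 274 CPM in Id3+ cTR of lymph node (log2 change -0.75 ± 0.10, edgeR adjusted p = 8.63e-05).

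The counts of calls depended on single mice. Without mouse 87 they were 3 of 24 in lymph node and 2 in spleen, without mouse 86 they were 5 in lymph node, and without the 3 spleen libraries 3 in spleen. Over all genes, 212 were called lower in lymph node and 210 in spleen without mouse 87, against 582 and 634 with all mice. Without 1 library, the lymph node count was 8 when Id3+ cTR of mouse 86 or of mouse 87 was left out.

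Few of these genes were called apart in Id3+ eTR. Against Id3+ cTR, the list had 1 gene called lower (Nop56) and 0 higher in lymph node, where 1.46% of all genes were called lower and 4.2% higher, and its median was -0.37. In spleen 0 of 24 were called in either direction by edgeR (4 at an unadjusted p under 0.05), where 1.39% of all genes were called lower and 2.93% higher, and its median was 0.07. In Id3- eTR against Id3+ eTR the median was -0.38 in lymph node and -0.50 in spleen. There Nop58 was called lower in lymph node (1.17% of all genes lower, 1.45% higher), and Nop56, Dkc1 and Polr1a in spleen (1.75% lower, 1.53% higher). The lymph node call of Nop58 was lost in 5 of 15 alternatives (adjusted p from 0.0658 to 0.193), without any 1 of the 3 mice, without Id3+ eTR of mouse 84 and without Id3- eTR of mouse 86. In spleen, the call of Dkc1 was lost in 5 of 16 (adjusted p from 0.0525 to 0.179), with only the groups compared, without any 1 of the 3 mice and without Id3- eTR of mouse 87. These contrasts share their groups, and the order of the populations was not tested.

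**Figure D4:**
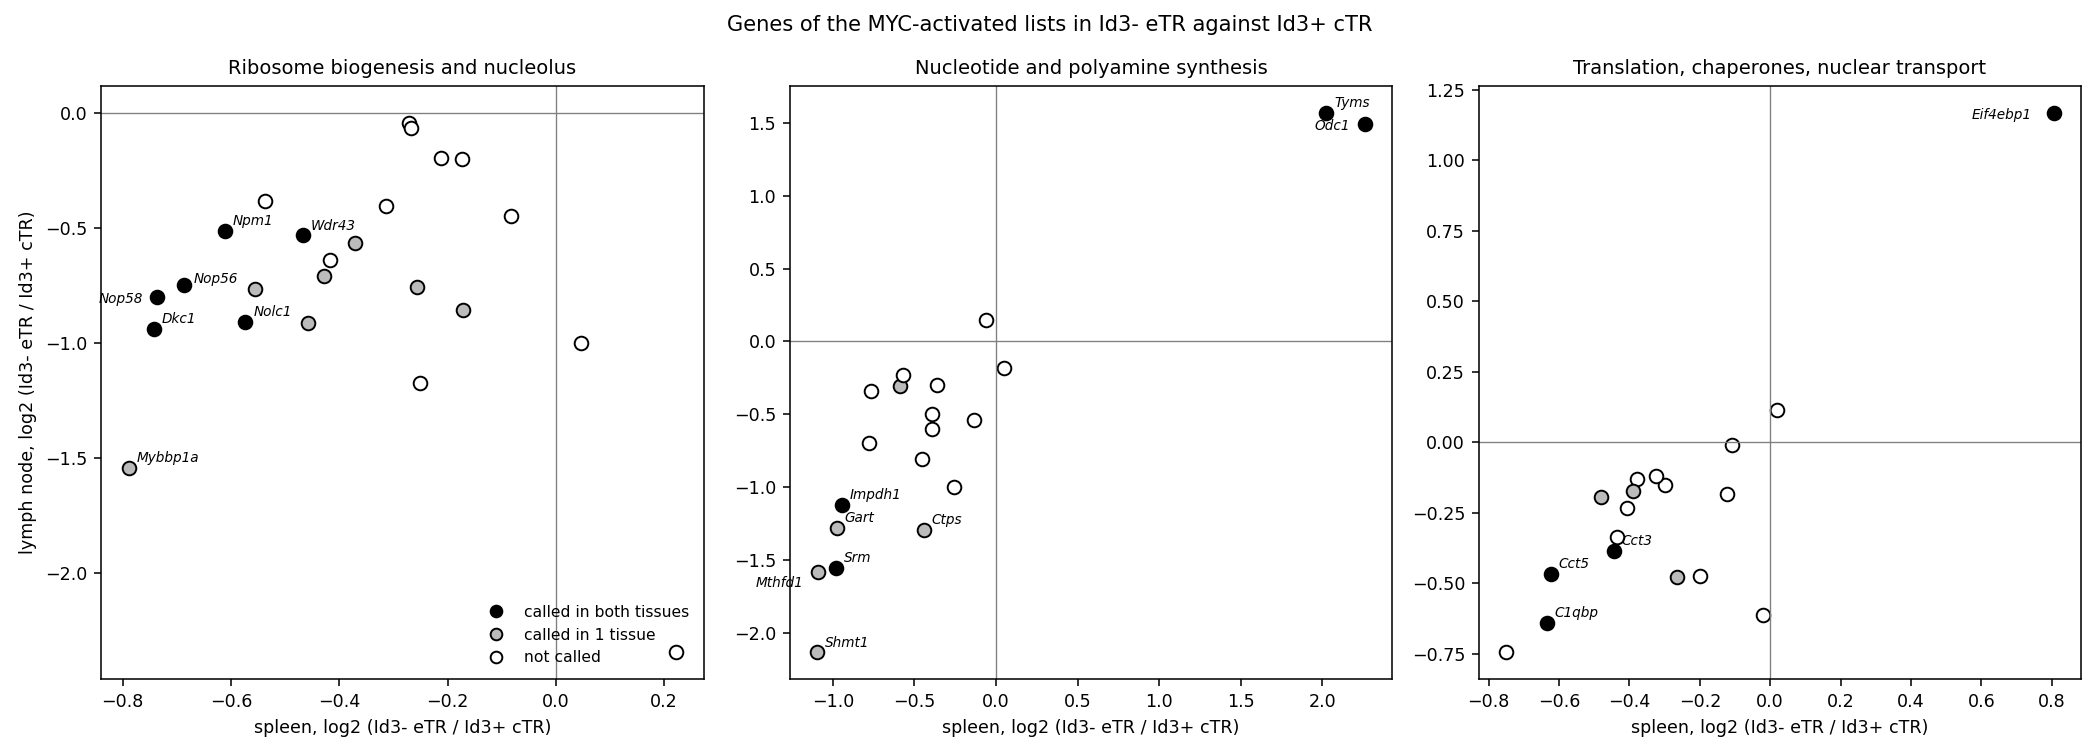
Log2 change in Id3- eTR over Id3+ cTR in spleen (x axis) and lymph node (y axis) for the tested genes of 3 lists of MYC-activated genes, 24, 20 and 18 genes. Black points were called by edgeR in both tissues, grey points in 1 tissue and open points in none; most points lie in the lower left, and Odc1, Tyms and Eif4ebp1 in the upper right.

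Genes for nucleotide and polyamine synthesis were called in both directions. Of 20 tested, 6 were called lower and 2 higher in lymph node Id3- eTR against Id3+ cTR, with a median log2 change of -0.57. There, 4.68% of all genes were called lower and 8.26% higher. In spleen 3 were lower and 2 higher, against 5.09% and 7.17% of all genes, with a median of -0.45. The 2 calls higher in each tissue are near the share over all genes. Srm, which makes spermidine, was lower at 54.2, 59.9 and 49.5 CPM in Id3- eTR, against 154, 165 and 161 CPM in Id3+ cTR of lymph node. Its log2 change was -1.55 ± 0.17 (edgeR adjusted p = 7.43e-06), and in spleen -0.98 ± 0.17 (adjusted p = 0.00077, or 0.0717 without mouse 87). In lymph node, Id3+ eTR lay between, at 86.0, 118 and 86.9 CPM, and was called apart from both, with a log2 change of -0.72 ± 0.17 against Id3+ cTR (edgeR adjusted p = 0.0129) and of -0.83 ± 0.17 for Id3- eTR against it (adjusted p = 0.0112). Each of these 2 calls was lost in 6 of 15 alternatives, the removal of mouse 84 or 87 among them.

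Odc1, the enzyme just before Srm in polyamine synthesis and a classical MYC target, went the other way. It stood at 132, 112 and 89.8 CPM in Id3- eTR, 117, 111 and 83.4 CPM in Id3+ eTR and 44.3, 36.7 and 38.0 CPM in Id3+ cTR of lymph node. In spleen it stood at 133, 114 and 98.7 CPM in Id3- eTR, 86.8, 48.0 and 62.6 CPM in Id3+ eTR and 24.7, 26.8 and 20.3 CPM in Id3+ cTR. Every effector library thus lay above every Id3+ cTR library of its tissue. In Id3- eTR against Id3+ cTR its log2 change was 1.49 ± 0.22 in lymph node (edgeR adjusted p = 0.000183) and 2.26 ± 0.24 in spleen (adjusted p = 5.68e-06).

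Tyms, the thymidylate synthase of DNA synthesis, was also higher, at 85.9 ± 25.1 CPM in Id3- eTR against 29.0 ± 5.49 CPM in Id3+ cTR of lymph node (edgeR adjusted p = 0.0189) and 79.6 ± 16.1 against 19.9 ± 14.9 CPM in spleen (adjusted p = 0.00506, or 0.126 without mouse 86). The lymph node call was lost in 6 of 15 alternatives, without mouse 86, without mouse 87 and without either library of mouse 86 or the Id3+ cTR library of mouse 87 or the Id3- eTR library of mouse 84. The other genes called lower were Impdh1 in both tissues, Gart, Ctps, Mthfd1 and Shmt1 in lymph node and Nme1 in spleen, enzymes of purine, pyrimidine and folate metabolism. Without mouse 87 the counts of genes called lower were 2 in lymph node and 0 in spleen, and without mouse 86 it was 3 in lymph node. Without 1 library of lymph node the count was 2 (Id3- eTR of mouse 87) or 3 (the Id3- eTR library of mouse 84, or the Id3+ cTR library of mouse 87), and without the 3 spleen libraries it was 1 in spleen.

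Among 18 genes of translation, chaperones and nuclear transport, 4 were called lower and 1 higher in lymph node Id3- eTR against Id3+ cTR, and 5 lower and 1 higher in spleen. Over all genes, the shares were 4.68% lower and 8.26% higher in lymph node, and 5.09% and 7.17% in spleen. The medians of the list were -0.21 and -0.35. Cct5, a subunit of the TRiC chaperonin, averaged 350 ± 9.71 CPM in Id3- eTR and 483 ± 21.4 CPM in Id3+ cTR of lymph node (log2 change -0.47 ± 0.10, edgeR adjusted p = 0.00324, or 0.147 without mouse 87). In spleen it averaged 349 ± 14.6 and 538 ± 45.2 CPM in these populations (-0.62 ± 0.10, adjusted p = 0.000296, or 0.0636 without mouse 87). C1qbp, a mitochondrial matrix protein, changed by -0.64 ± 0.14 in lymph node and -0.63 ± 0.14 in spleen (edgeR adjusted p = 0.00549 and 0.00676), calls lost without mouse 84 or 87 in lymph node and without any 1 of the 3 mice or the 3 libraries in spleen, with adjusted p up to 0.132 and 0.233. Eif4ebp1, an inhibitor of cap-dependent translation, was higher by 1.17 ± 0.24 in lymph node (edgeR adjusted p = 0.00314, or 0.0775 without mouse 87) and by 0.81 ± 0.24 in spleen (adjusted p = 0.0393, or 0.0525 with the mouse as a block, lost in 11 of 16 alternatives). Without mouse 87, 0 genes of the list were called lower in either tissue. Without mouse 84 it was 1 in lymph node and 2 in spleen, without mouse 86 it was 3 in spleen, and without spleen Id3+ cTR of mouse 84 or of mouse 87 it was 3 in spleen.

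The lists of amino acid transport and of cell cycle entry gave few calls. In Id3- eTR against Id3+ cTR, 8.26% of all genes were called higher and 4.68% lower in lymph node, and 7.17% and 5.09% in spleen. Of 11 genes for amino acid transport and glutamine use, which depend on MYC in activated T cells, 1 was higher (Slc1a5) and 1 lower (Slc38a2) in lymph node Id3- eTR against Id3+ cTR. In spleen 1 was higher (Slc3a2) and 1 lower (Slc38a2). Of 10 genes of cell cycle entry, Ccnd3 was called lower in lymph node, and Ccnd2 and Ccnd3 in spleen. Ccnd2, a D-type cyclin, averaged 450 ± 12.7 CPM in Id3- eTR and 661 ± 6.19 CPM in Id3+ cTR of spleen (log2 change -0.55 ± 0.07, edgeR adjusted p = 1.99e-05), while its lymph node change of -0.13 had an adjusted p of 0.252. The calls of Slc38a2 in both tissues and of Ccnd3 in lymph node were lost in 7 or more alternatives each, and Ccnd3 had an adjusted p of 0.0666 with the mouse as a block. That of Slc1a5 was lost in 4 of 15 (adjusted p up to 0.132), without mouse 86 or 87, Id3+ cTR of mouse 84 or Id3- eTR of mouse 86. That of Slc3a2 was lost in 5 of 16 (up to 0.209), with only the groups compared and without mouse 84 or 86 or the Id3+ cTR library of either. That of Ccnd3 in spleen was lost in 4 of 16 (up to 0.312), without mouse 84 or 87, the 3 libraries or Id3- eTR of mouse 87.

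Of 7 tested genes that MYC is known to repress, Cdkn1a and Cdkn2c, which encode inhibitors of cyclin-dependent kinases, were called higher in both tissues. Over all genes, 8.26% were called higher in lymph node and 7.17% in spleen, and 4.68% and 5.09% lower. Cdkn2c stood at 74.7, 45.3 and 84.1 CPM in Id3- eTR, against 13.2, 4.63 and 11.7 CPM in Id3+ cTR of lymph node. Its log2 change was 2.79 ± 0.54 (edgeR adjusted p = 0.00182), and in spleen 3.53 ± 0.59 (adjusted p = 0.000574, or 0.0599 without the 3 libraries). Cdkn1a stood at 25.9, 39.1 and 21.7 CPM in Id3- eTR, against 1.51, 11.9 and 2.84 CPM in Id3+ cTR of lymph node (2.39 ± 0.66, edgeR adjusted p = 0.0225, lost in 6 of 15 alternatives, with adjusted p up to 0.171). In spleen its log2 change was 3.89 ± 0.77 (adjusted p = 0.00248, or 0.0682 without the 3 libraries). Ndrg1, also known as repressed by MYC, was called lower in spleen (-1.95 ± 0.54, edgeR adjusted p = 0.0242, lost in 6 of 16 alternatives), and its lymph node change of 1.02 ± 0.52 was not called.

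The targets of MLX with MondoA are Txnip, an inhibitor of glucose uptake, and the related arrestin gene Arrdc4. They went in opposite directions. Txnip stood at 377, 338 and 379 CPM in Id3- eTR, 414, 347 and 399 CPM in Id3+ eTR and 517, 533 and 559.8 CPM in Id3+ cTR of lymph node. Its log2 change in Id3- eTR against Id3+ cTR was -0.56 ± 0.10 in lymph node (edgeR adjusted p = 0.000637) and -0.68 ± 0.10 in spleen (adjusted p = 0.000116). Arrdc4 averaged 44.4 ± 19.8 CPM in Id3- eTR and 13.7 ± 8.26 CPM in Id3+ cTR of lymph node, with a log2 change of 1.69 ± 0.54 (edgeR adjusted p = 0.0477, higher in 2 of 3 mice, or 0.0754 with the mouse as a block, lost in 9 of 15 alternatives). In spleen it averaged 74.4 ± 18.5 and 17.7 ± 15.7 CPM in these populations (2.12 ± 0.55, adjusted p = 0.016, or up to 0.216 without mouse 87 or 1 of 3 single libraries).

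**Figure D5:**
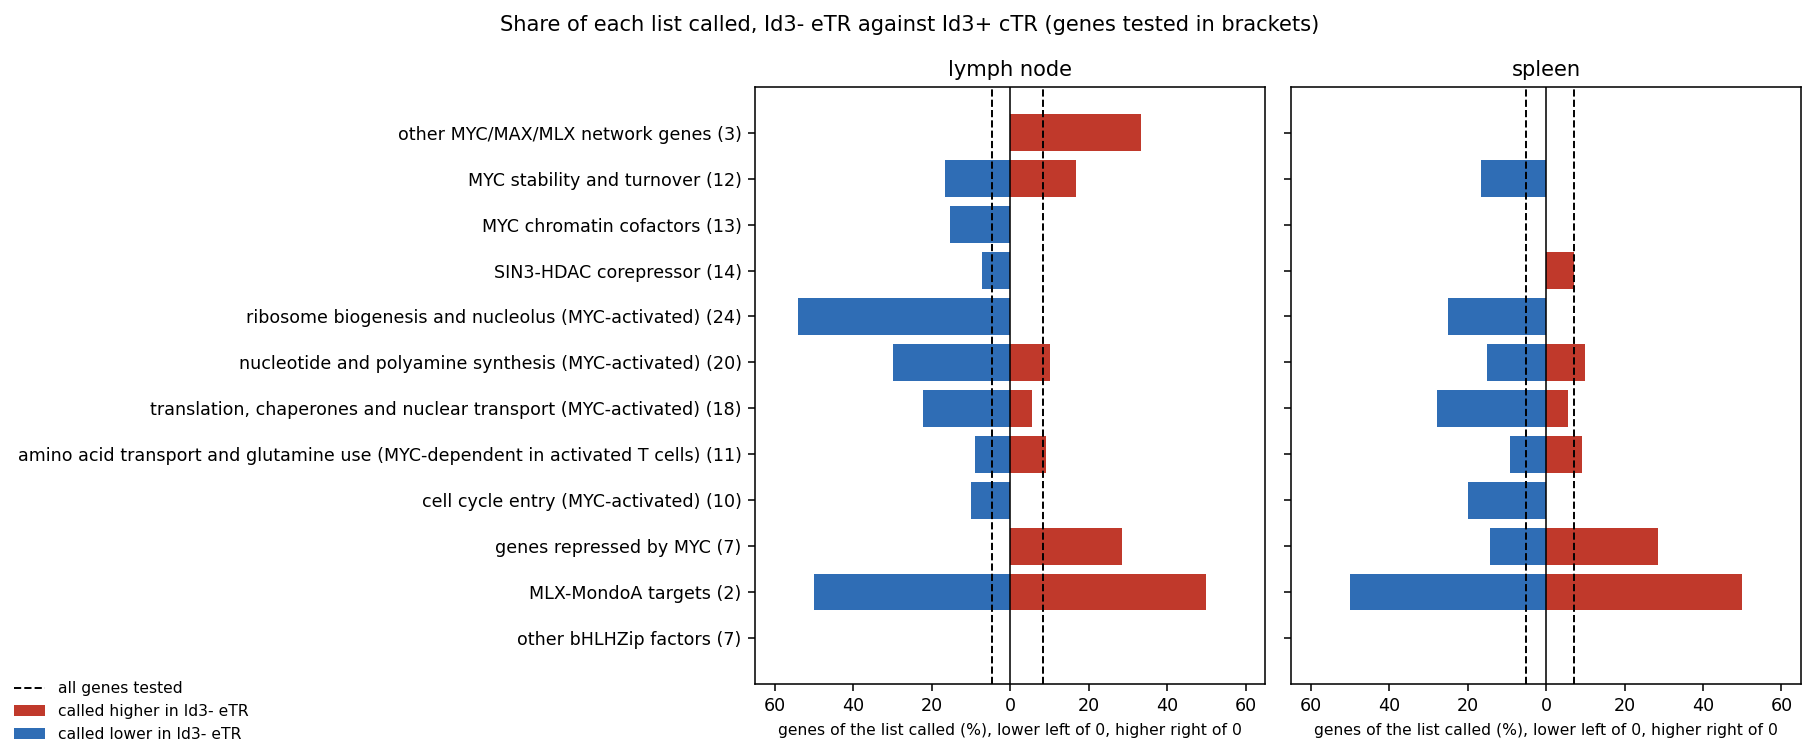
Percent of the tested genes of each list (number in brackets) called by edgeR lower (left of 0) or higher (right of 0) in Id3- eTR than in Id3+ cTR, in lymph node and in spleen. Dashed lines give the percent of all 12445 genes called; for the ribosome list 13 of 24 genes were called lower in lymph node and 6 in spleen.

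Genes that control the stability of the MYC protein, its chromatin cofactors and the corepressor used by MXD proteins gave scattered calls. Of 12 stability genes, Pim1, a kinase that stabilizes MYC, and Cip2a, an inhibitor of the phosphatase PP2A, were called higher in lymph node Id3- eTR against Id3+ cTR, and Usp28 and Ppp2r5a lower. In spleen Huwe1 and Ppp2r5a were called lower. Over all genes, 8.26% were called higher and 4.68% lower in lymph node, and 7.17% and 5.09% in spleen. Pim1 averaged 65.6 ± 1.42 CPM in Id3- eTR and 33.5 ± 3.15 CPM in Id3+ cTR of lymph node (log2 change 0.97 ± 0.17, edgeR adjusted p = 0.000637, or 0.0528 without mouse 86). Ppp2r5a, a regulatory subunit of PP2A, changed by -0.37 ± 0.12 in lymph node and -0.56 ± 0.12 in spleen (edgeR adjusted p = 0.044 and 0.00385), and these calls were lost in 11 of 15 and 3 of 16 alternatives. With the mouse as a block, Pim1 was the only call left among the stability genes in lymph node, with an adjusted p of 0.0631 for Ppp2r5a and 0.0746 for Cip2a.

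Of 13 chromatin cofactors, the acetyltransferase gene Kat2a (-1.13 ± 0.31, edgeR adjusted p = 0.0225) and the helicase gene Ruvbl1 (-0.75 ± 0.21, adjusted p = 0.022) were called lower in lymph node. In spleen 0 were called by edgeR and 1 had an unadjusted p under 0.05. Of 14 genes of the SIN3-HDAC complex, Hdac2 was called lower in lymph node (-0.43 ± 0.14, edgeR adjusted p = 0.0474) and Sap30 higher in spleen (1.57 ± 0.47, adjusted p = 0.0352). Over all genes, 4.68% were called lower in lymph node and 7.17% higher in spleen. The calls of Cip2a, Kat2a, Ruvbl1, Hdac2 and Sap30 were each lost in 6 to 10 of the alternatives, single libraries among them. Of 7 other genes for factors of the same protein class, 0 were called by edgeR in either tissue, with 1 in lymph node and 0 in spleen at an unadjusted p under 0.05.

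Few genes of these lists were called between Id3+ eTR and Id3+ cTR, as was so over all genes. In lymph node 4.2% of all genes were called higher and 1.46% lower, and in spleen 2.93% and 1.39%. In lymph node, Odc1 and Arrdc4 were called higher and Srm, Txnip and Ppp2r5a lower, beside Nop56. The calls of Arrdc4 and Ppp2r5a were each lost in 6 of 15 alternatives, without mouse 84 or 87 and without the Id3+ eTR or Id3+ cTR library of either mouse, with adjusted p up to 0.394 and 0.339. With the mouse as a block, 2 genes of nucleotide and polyamine synthesis were called lower there in place of 1. In spleen, Odc1, Slc38a1 and Cdkn2c were called higher and Cct5, Ccnd2, Txnip and Arid4b lower. With the mouse as a block, Slc38a1 and Arid4b were not called there and Arrdc4 was called higher (adjusted p = 0.0484). The spleen calls of Cct5 and Cdkn2c were each lost in 8 of 16 alternatives, with adjusted p up to 0.757 and 0.543, and that of Ccnd2 in 5 of 16, with adjusted p up to 0.197. All 3 were lost without the 3 libraries, without mouse 84 or 87 and with only the groups compared. That of Cct5 was also lost without the Id3+ eTR or Id3+ cTR library of mouse 84 or 87, that of Cdkn2c without the Id3+ cTR library of mouse 84 or 87, without the Id3+ eTR library of mouse 87 and with limma-voom, and that of Ccnd2 without mouse 86. Odc1 changed by 1.39 ± 0.22 in lymph node (edgeR adjusted p = 0.000884, or 0.0538 without mouse 86) and by 1.45 ± 0.24 in spleen (adjusted p = 0.00199, lost in 4 of 16 alternatives, without mouse 84, without mouse 87 and without the 3 libraries among them). Txnip changed by -0.47 ± 0.10 in lymph node (edgeR adjusted p = 0.00568, lost without any 1 of the 3 mice, at up to 0.149) and by -0.53 ± 0.10 in spleen (adjusted p = 0.00391, lost in 4 of 16 alternatives). In Id3- eTR against Id3+ eTR, Srm was called lower in lymph node and Gart in spleen, beside the ribosome genes above, and the block added Odc1 as higher in spleen (adjusted p = 0.0165).

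Among 8849 genes of sufficient level, those most like Myc over the 18 libraries were Bzw2 (Pearson's r 0.943), Bach2 (0.94), Igfbp4 (0.935), Zpr1 (0.934) and Srm (0.934). Bach2 encodes a repressor that restrains effector differentiation of T cells. It averaged 24.8 ± 3.73 CPM in Id3- eTR, 94.2 ± 16.8 CPM in Id3+ eTR and 222 ± 42.5 CPM in Id3+ cTR of lymph node. Most opposite were Ccr2, a chemokine receptor gene (-0.929), Lamp2 (-0.924) and Ctla4 (-0.92). The libraries share mice and groups, so these values are descriptions of the pattern over groups and mice. With Spearman's rho, Zpr1, Bzw2 and Srm remained among the 5 most alike.

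For the other members the most alike genes were Rragb (0.946) and Snx14 (0.915) for Mxd4, Pik3ip1 (0.924) and Dgka (0.902) for Mxd1, Ece2 (0.861) and Xrcc6 (0.807) for Mlx, and Gys1 (0.851) and Slc23a2 (0.826) for Mxi1. For Mnt they were Atrn (0.746) and Setdb1 (0.717), and for Max Ptcd2 (0.738) and Prr14l (0.703). Pik3ip1 and Dgka, the genes most like Mxd1, encode brakes on PI3K and diacylglycerol signals in T cells.

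Markers of other cells moved with the populations, and their part in the results above was not tested. In Id3- eTR against Id3+ cTR, 8.26% of all genes were called higher in lymph node and 7.17% in spleen. The 9 myeloid markers summed to 328 to 364 CPM in Id3- eTR, 216 to 446 CPM in Id3+ eTR and 141 to 167 CPM in Id3+ cTR of lymph node, and to 247 to 296, 153 to 260 and 137 to 264 CPM in these populations of spleen. Of the 6 tested, 4 were called higher in lymph node Id3- eTR against Id3+ cTR (Fcer1g, Tyrobp, Cst3 and Spi1) and 3 in spleen (Cd68, Fcer1g and Tyrobp), while the 3 not tested, Itgax, Csf1r and Adgre1, had at most 2, 23 and 39 counts per library. The 8 CD8 T and NK markers summed to 240 to 336, 187 to 413 and 88.6 to 136 CPM in Id3- eTR, Id3+ eTR and Id3+ cTR of lymph node, and to 349 to 386, 125 to 164 and 85.9 to 174 CPM in spleen. Of the 7 tested, 3 were called higher in lymph node (Nkg7, Ccl5 and Klrk1) and 2 in spleen (Nkg7 and Ccl5), while Ncr1 was at 0 in every library. Without a call, Prf1 was lower in lymph node (-2.03 ± 0.89) and Cd8b1 lower in spleen (-0.81 ± 0.29), both without overlap. Klrk1 was higher in spleen (5.28 ± 1.72), also without overlap and without a call. Cd8a and Klrb1c overlapped in both tissues.

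The 11 B cell markers found in the table summed to 870 to 1530 CPM over all libraries. Of the 9 tested, 2 were called higher in lymph node (Ighm and Cd74) and 1 lower in spleen (Cd79a), where 8.26% and 5.09% of all genes were. Pax5 and Ebf1 had at most 10 and 8 counts per library. In lymph node, Cd79a and Ms4a1 were lower and Cd22 higher without overlap, and none of these was called. The 8 erythroid and platelet markers summed to 18.8 to 135 CPM in Id3- eTR, 10.1 to 147 CPM in Id3+ eTR and 191 to 324 CPM in Id3+ cTR of spleen, against at most 9.5 CPM in lymph node, where at least 3 of the 4 globin genes were at 0 in each group. Of these 8, Alas2 was called lower in spleen Id3- eTR against Id3+ cTR. Without a call, the 4 globin genes were also lower there, without overlap. The platelet genes went the other way without overlap or a call, at low levels. Ppbp averaged 9.09 ± 5.86 CPM in Id3- eTR and 0 in Id3+ cTR of spleen (log2 change 7.5 ± 2.4). Pf4 averaged 6.16 ± 3.32 and 0.133 ± 0.231 CPM (4.8 ± 1.5).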

How the data were processed

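PolyA RNA of 500 sorted cells per library was amplified with the SMART-Seq v4 kit and made into libraries with a modified Nextera XT protocol, per the labels' protocols. The deposited table of counts holds whole-number reads per gene, not normalized. A second deposited table holds the authors' normalized signal per gene symbol. For 13883 genes matched by symbol, 99.982% of its values were a library-wide multiple of the count, within 0.1%, the 7 network genes included, so all values here rest on the count table. Alignment tools (TopHat, Bowtie), the counter HTSeq 0.4.1 and SAMtools, Picard and FastQC are listed in the submitters' processing notes. The genome build of the alignment and the strand setting of the counting are not given in the sources used here. Symbols and exon lengths came from GENCODE M21, for 32919 of 37991 gene identifiers. The 5072 without a symbol held 0.891% of counts and stayed in the fit.

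Genes were kept with filterByExpr (minimum count 10), libraries were scaled by TMM, and edgeR 4.0.16 (R 4.3.3) fitted 1 model of the 6 groups to the 18 libraries, with robust two-sided quasi-likelihood tests on 12 residual degrees of freedom, Benjamini-Hochberg adjustment over the 12445 genes tested and calls at an adjusted p under 0.05. The fit was also run on simulated counts with known changes. These had no mouse effect and no outlying library, and no result here rests on them. CPM values are relative to TMM-scaled totals, with a prior count of 2 on the log2 scale. Contrasts were the population pairs within a tissue, lymph node against spleen within a population, and their differences. Low counts from 500 cells limit genes such as Mnt. Windows around transcription starts came from RefSeq.

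The mouse numbers pair the libraries, since the same number is the same animal. Deviations of same-mouse libraries from their group means had an r from -0.106 to 0.132 (median 0.0285, 33 of 45 above 0). The fit without the mouse as a block is the main one. Alternatives were RLE size factors, no filter, limma-voom (limma 3.58.1), DESeq2 1.42.0, only the groups compared, the mouse as a block, each library or mouse left out, and 3 spleen libraries left out together.

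The members and gene lists were chosen with earlier results of these data known. By the naming rule, the text names all 7 members and, from each list, up to 3 genes that both tissues called with 1 sign between Id3- eTR and Id3+ cTR, by mean absolute log2 change, filled from 1 tissue. It names all other network genes, and the genes most like a member whose mean log2 CPM reached 3. Pvt1, a neighbour of Myc, was not matched by symbol and is not analysed here. Genes named only beside a count of 5 or fewer, or as members of a group of calls, fall outside the rule.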

Additional observations from a re-analysis of the deposited data

Results flagged for a closer look

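Myc differed between lymph node and spleen in opposite directions in 2 populations. In Id3- eTR it was lower in lymph node in all 3 mice (log2 change -0.47) and in Id3+ cTR higher in all 3 (0.53), a difference of -1.01 on the log2 scale that was not tested, since Myc was chosen on these levels.

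Mnt in Id3+ eTR against Id3+ cTR was lower in all 3 mice in lymph node (-0.97 ± 0.53, SE, with overlap) and higher in all 3 in spleen (0.88 ± 0.52). The difference was -1.85 ± 0.74, at 7 to 45 counts per library. Mxi1 went the same ways in this contrast (-0.14 ± 0.21 in lymph node and 0.35 ± 0.21 in spleen), a difference of -0.49 ± 0.30. Mxi1 was also higher in lymph node than in spleen in Id3- eTR (0.19 ± 0.21) and lower in Id3+ eTR (-0.36 ± 0.21), a difference of 0.55 ± 0.29. The Mxi1 libraries overlapped in each of these contrasts, and some of its changes were smaller than their SE. These 3 differences were not tested.

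Between Id3- eTR and Id3+ cTR, Mlxip was lower in all 3 mice in lymph node (-0.24) and higher in all 3 in spleen (0.24), a difference of -0.48 that the interaction term of edgeR did not call (adjusted p = 0.734). Ndrg1 was higher in lymph node (1.02) and lower in spleen (-1.95) in all 3 mice, a difference of 2.98 that was not called either (edgeR adjusted p = 0.303).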

How the results depend on the processing

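The log2 changes of the 7 genes moved by less than the spread between mice in all settings but 2. In a contrast of 2 groups of 3 libraries, leaving out 1 library or 1 mouse can hardly shift a change that far. For those settings the count therefore says little about stability. The change of Mxd1 in Id3+ cTR, lymph node against spleen, was -0.0104 with 3 spleen libraries left out together (spleen Id3+ cTR of mice 84 and 87, spleen Id3+ eTR of mouse 84), against -0.41 with all. The lymph node minus spleen difference of Myc between Id3- eTR and Id3+ eTR, -0.28 with all libraries, ran from -0.56 to 0.11 with libraries or mice left out, and was 0.11 without mouse 86.

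In Id3- eTR against Id3+ cTR, the counts called lower changed with the samples used. With libraries or mice left out, ribosome genes ran from 3 to 10 in lymph node (13 with all) and 2 to 5 in spleen (6), nucleotide genes from 2 to 7 (6) and 0 to 4 (3), and translation genes from 0 to 5 (4) and 0 to 6 (5). Without the 3 libraries together the spleen counts were 3, 1 and 1, and with only the groups compared 3 translation genes were called in spleen. Over all genes, the same contrast gave 1028 higher in lymph node (504 without mouse 87 to 1281 with DESeq2) and 892 in spleen (422 to 1135). Genes called lower numbered 582 in lymph node (212 to 713) and 634 in spleen (210 to 754), at the same settings.

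The mouse as a replicate block left the count of all calls within 1.5 times in the population contrasts (1543 against 1610 in lymph node and 1459 against 1526 in spleen for Id3- eTR against Id3+ cTR). The calls it changed among genes of the naming rule are given beside those genes, and it changed no other call of theirs. Depth limits Mnt, with 7 to 45 counts per library, and Mxd3.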
